A study of Mus musculus with 23 samples.

Results

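The genes described here belong to the NF-kappaB pathway of the mouse lung: the ligand Tnf, the transcription factor subunits Nfkb1, Rel and Relb, the inhibitors Nfkbia and Nfkbie, the nuclear cofactor Bcl3, the feedback genes Tnfaip3 and Birc3, and the target Icam1. They were chosen by name, as every probe set of the array that is annotated with a single symbol among these 10. The rule found 16 probe sets of 45037, for 9 of the 10 genes. Nfkbia had 5 probe sets, Tnfaip3, Nfkbie and Birc3 had 2 each, and Tnf, Rel, Relb, Bcl3 and Icam1 had 1 each. Nfkb1 was not analysed here. Where a gene had several probe sets, the one with the highest mean signal stands for the gene in counts of genes, and the others are given beside it.

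Total RNA of the whole right lung was hybridised to 23 arrays. Mice were CF-/- (called CF below) or CF+/+ (called control), of the inbred strains C57BL/6 (B6) or BALB/c (BALB), male or female. The 8 groups had 3 arrays each, except for CF males of B6, which had 2. The labels give neither an age nor a treatment nor the allele behind CF-/-, and nothing in them ties each array to its own mouse. P-values therefore measure how far these samples spread, and that spread may be technical. Values are log2 signals, on which a difference of 1 is a doubling. In a piece of whole lung, fewer cells of a type and less RNA per cell cannot be told apart.

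In resting cells, NF-kappaB dimers are held in the cytoplasm by inhibitors such as the products of Nfkbia and Nfkbie. Ligands such as TNF and interleukin 1 act through receptor complexes and a kinase that marks these inhibitors for degradation, and the freed dimers then switch on genes of inflammation in lung epithelium, endothelium and macrophages. Several of those genes encode brakes of the pathway itself: Nfkbia restores the inhibitor, and Tnfaip3 encodes A20, an enzyme that edits ubiquitin on the signalling complexes. Their transcripts are therefore often read together with those of the pathway's other targets.

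With CF, the inhibitor Nfkbia read higher in B6 and lower in BALB on all 5 probe sets. Of these, 3 passed in B6, the brightest not among them, and 4 passed in BALB. The difference between the strains passed the test on each of the 5. With scores of gut, squamous and muscle markers as covariates it passed on none of them, and the BALB calls were lost. In BALB these scores went partly with genotype. Few probe sets of any gene passed in that fit in BALB or for the strain difference. Tnfaip3 was 1.45-fold higher in CF lungs of B6, with no overlap between the arrays of the genotypes. On the same probe set its change in BALB was 0.10 on the log2 scale and did not pass, although its second probe set passed in BALB. The brighter probe set of Birc3 passed as higher, by 0.24 in B6 and by 0.25 in BALB, while its other probe set read -0.020 and -0.0030 and the B6 call was lost in 22 of 34 alternatives. Tnf, Rel, Relb, Nfkbie, Bcl3 and Icam1 passed in neither strain.

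The promoters of the 3 genes with a change are shown because the kappaB motif, the DNA sequence that NF-kappaB dimers bind, stands close to the start of 2 of them. They are the 250 bases before the annotated start, 5′ to 3′ on the strand of the gene, from RefSeq on GRCm38.p6: Nfkbia at chr12:55492648-55492897, Tnfaip3 at chr10:19015411-19015660 and Birc3 at chr9:7873171-7873420, all on the minus strand. Capitals mark the short kappaB motif GGGNNTTTCC, searched on both strands. It was found here on the strand opposite to the gene, so it reads in reverse complement. Tnfaip3 has 2 annotated starts in that table, and the window with a match is printed; the other had none.
Nfkbia: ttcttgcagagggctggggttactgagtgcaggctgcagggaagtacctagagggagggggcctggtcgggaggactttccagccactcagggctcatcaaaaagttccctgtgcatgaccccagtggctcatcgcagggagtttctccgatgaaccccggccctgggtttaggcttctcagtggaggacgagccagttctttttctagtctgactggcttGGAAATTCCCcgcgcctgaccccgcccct
Tnfaip3: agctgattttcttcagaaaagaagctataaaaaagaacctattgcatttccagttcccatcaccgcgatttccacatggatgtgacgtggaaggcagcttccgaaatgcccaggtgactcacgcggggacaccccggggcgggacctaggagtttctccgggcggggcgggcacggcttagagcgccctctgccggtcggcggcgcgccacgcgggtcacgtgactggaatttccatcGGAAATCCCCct
Birc3: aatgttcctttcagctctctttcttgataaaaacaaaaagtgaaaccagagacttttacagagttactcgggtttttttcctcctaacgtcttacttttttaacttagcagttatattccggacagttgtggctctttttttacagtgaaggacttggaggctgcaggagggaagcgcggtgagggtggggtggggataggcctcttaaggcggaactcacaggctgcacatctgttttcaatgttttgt
The match began 29 bases before the start of Nfkbia and 12 bases before that of Tnfaip3. Rel also had a match, 91 bases before its start. In windows of 300 bases, from 250 before to 50 after a start, the short motif stood in 535 of 32851 windows (1.63%) and in windows of 3 of the 8 members that have one. A second kappaB consensus is looser at later bases but needs A or G right after GGG, so it does not include every short match. By it, 1480 windows (4.51%) and 5 members had a match: Nfkbia, Nfkbie, Rel, Tnfaip3 and Bcl3. Birc3, Tnf and Icam1 had none in this window. A match describes letters and not binding, and no promoter was printed for the other genes.

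Before the members' values, the labels and the tissue were checked. Cftr, the chloride channel gene that is defective in cystic fibrosis, read 5.40 to 5.85 in BALB controls and 3.49 to 4.42 in BALB CF lungs (difference -1.67, SE 0.13, adjusted p = 6.44e-07). In B6 it read 4.04 to 4.58 in controls and 3.86 to 4.31 in CF lungs (difference -0.22, adjusted p = 0.43), so this probe set did not part the genotypes of B6, and a B6 CF array below is the array labelled so. Xist and Eif2s3y parted female from male arrays in every case. The mean of 7 alveolar type 2 markers lay between 11.76 and 12.04 on all arrays. Other tissue came with some samples: the mean of 8 gut epithelium markers was above 5.9 on 5 arrays, all of them controls (B6 female 1, BALB females 1 and 3, BALB males 1 and 2). In BALB it ran from 4.92 to 6.67 over all controls and from 4.26 to 5.54 over the CF arrays, so there it went largely with genotype. The mean of 9 squamous epithelium markers was above 6 on 4 arrays, control male 3 of B6 and all 3 CF females of BALB, and skeletal muscle markers reached 7.35 and 7.77 in the same groups. Array medians lay between 4.56 and 4.64, and the number of arrays limits the precision of every comparison.

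Nfkbia encodes IkappaB alpha, the main inhibitor that NF-kappaB itself induces. Among the 9 genes it had the largest difference between the strains' changes with CF. On its brightest probe set, 1420088_at, that difference was -0.59 (SE 0.13, adjusted p = 0.0189). Tnfaip3 had a smaller difference with a lower adjusted p (-0.43, SE 0.07, adjusted p = 0.00317). The values of Nfkbia below are from probe set 1449731_s_at. It was chosen after they were seen because its strain difference was the largest of the 5. There, female controls of B6 read 9.16, 8.99 and 9.18 and CF females of B6 read 9.71, 9.63 and 9.55. Male controls of B6 read 9.31, 9.32 and 9.43, and both CF males of B6 read higher, at 9.57 and 9.73. Every CF array of B6 therefore lay above every control array of B6, as on 1.3% of all probe sets. In BALB the order was the opposite. Female controls read 9.51, 9.56 and 9.50 against 9.30, 8.80 and 9.01 in CF females. Male controls read 9.58, 9.34 and 9.66 against 8.71, 9.15 and 8.99 in CF males. Every CF array of BALB lay below every control array of BALB, as on 0.853% of all probe sets.

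**Figure D1:**
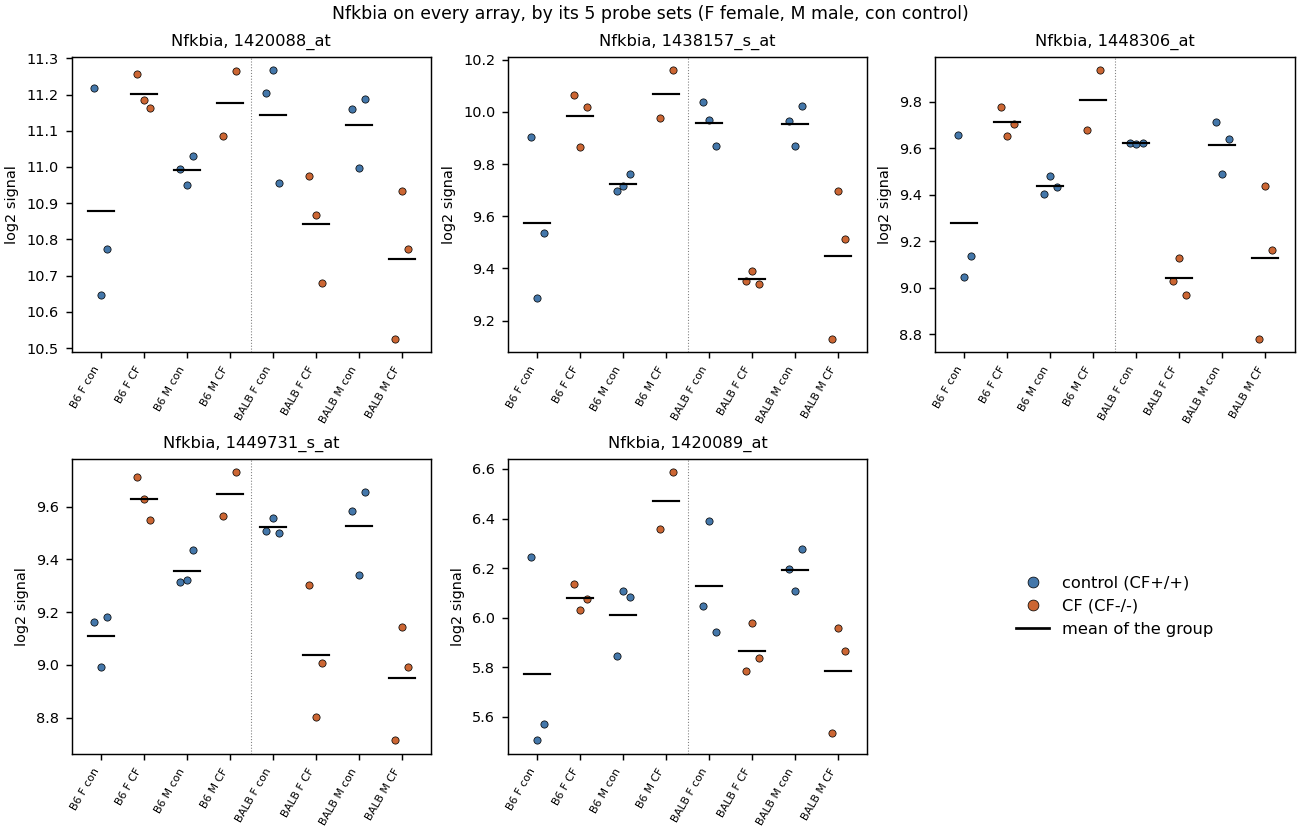
Log2 signal of Nfkbia on each of the 23 arrays, 1 panel per probe set. Points are arrays, blue for control and orange for CF, bars are group means, and the dotted line parts B6 from BALB. CF means lie above control means in B6 and below them in BALB in each panel, for 1449731_s_at without overlap in either strain.

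Group means were 9.23 ± 0.16 (SD, n = 6) in B6 controls, 9.64 ± 0.08 (n = 5) in B6 CF lungs, 9.52 ± 0.11 (n = 6) in BALB controls and 8.99 ± 0.22 (n = 6) in BALB CF lungs. The change in B6 on 1449731_s_at, the mean of its changes in both sexes, was 0.41 (SE 0.09, 1.32-fold higher, adjusted p = 0.00932), and in BALB it was -0.53 (SE 0.08, 1.44-fold lower, adjusted p = 0.000754). The BALB change minus the B6 change was -0.94 (SE 0.12, adjusted p = 0.000296). The other 4 probe sets had the same order. On 1438157_s_at the change was 0.38 in B6 (SE 0.10, adjusted p = 0.0281) and -0.55 in BALB (SE 0.09, adjusted p = 0.00114), and on 1448306_at 0.40 (SE 0.11, adjusted p = 0.0315) and -0.53 (SE 0.10, adjusted p = 0.00292). On 1420088_at, the brightest, the change was 0.25 in B6 (SE 0.10, adjusted p = 0.149) and -0.34 in BALB (SE 0.09, adjusted p = 0.0336). The dimmest, 1420089_at, passed in neither strain (0.38, adjusted p = 0.0625, and -0.33, adjusted p = 0.0855). Thus 3 of 5 probe sets passed as higher in B6 and 4 of 5 as lower in BALB.

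The difference between the strains' changes passed on all 5, at -0.59 (1420088_at, adjusted p = 0.0189), -0.93 (1438157_s_at, adjusted p = 0.000903), -0.93 (1448306_at, adjusted p = 0.00144), -0.94 (1449731_s_at) and -0.72 (1420089_at, adjusted p = 0.0188). The 5 probe sets share 1 gene and 1 set of RNA samples, and each correlated with the brightest at r = 0.842 to 0.917 over the 23 arrays. They are repeated readings and not replicates.

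The strains also differed in level, in opposite directions by genotype. In CF lungs, all 5 probe sets were lower in BALB than in B6, by -0.40 (1420088_at, adjusted p = 0.0049) to -0.67 (1448306_at), with no overlap between the 5 B6 and the 6 BALB arrays on any of them, as on 5.53% of all probe sets. In control lungs, all 5 differences were above 0 and 2 of them passed, 1438157_s_at at 0.31 (adjusted p = 0.0244) and 1449731_s_at at 0.29 (adjusted p = 0.0188), with overlapping arrays. The first of these was lost without any 1 of 5 control arrays (B6 females 2 and 3, B6 male 1, BALB female 1, BALB male 3; adjusted p up to 0.0858) and the second without B6 female 2 or BALB male 3 (0.057 and 0.0525). Among control females of B6, array 1 read 11.22 on 1420088_at, and arrays 2 and 3 read 10.65 and 10.77, the lowest controls of the study.

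By sex, the change of 1449731_s_at was 0.52 in females of B6 (adjusted p = 0.0384) and 0.29 in males (adjusted p = 0.22). In BALB it was -0.48 in females (adjusted p = 0.0479) and -0.58 in males (adjusted p = 0.0111). Of all probe sets, 0.406% passed as higher in B6 females, and 0.608% and 0.664% as lower in BALB females and males. The female calls were lost without any 1 of 8 arrays in B6 and 14 arrays in BALB, and that of BALB males without any 1 of 2 (adjusted p up to 0.218, 0.166 and 0.066). The difference between the sexes did not pass in B6 (0.23, adjusted p = 0.632) or in BALB (0.09, adjusted p = 0.898), and neither did that of any other Nfkbia probe set.

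The B6 call of 1449731_s_at held when any 1 array was left out, whereas the B6 calls of 1438157_s_at and 1448306_at were lost without any 1 of 8 or 9 of the B6 arrays (adjusted p up to 0.103 and 0.127, both without CF male 2). Leaving out 1 BALB array ended the BALB call of 1420088_at for 8 of the 12 (control females 1 and 2, control males 1 and 3, CF females 2 and 3, CF males 1 and 3; adjusted p 0.0521 to 0.0906), and of no other Nfkbia probe set that passed. With gut, squamous and muscle marker scores as covariates, the difference between the strains was -0.72 to -1.02 over the 5 probe sets and no longer passed (adjusted p 0.104 to 0.203). All 4 BALB calls were lost with these covariates (adjusted p 0.399 to 0.578), while the 3 B6 calls were kept (adjusted p 0.0237 to 0.029). Few probe sets of any gene passed in that fit in BALB or for the strain difference, so a lost call there says little about Nfkbia itself.

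Other transcripts moved with Nfkbia. The 5 genes most like it over the 23 arrays, after the mean of each strain was taken off, were Pim3 (r = 0.89), Errfi1 (0.858), Per1 (0.855), Cebpd (0.845) and Rhob (0.842), of 11627 genes compared. Per1, a clock gene, and Errfi1, a feedback inhibitor of growth factor receptors, were also on a list of 9 genes that respond to glucocorticoids. Nfkbia is itself known as a glucocorticoid-responsive gene. Of that list, 1 gene passed as higher in B6 CF lungs (Sgk1, 0.37, adjusted p = 0.00163) and 2 as lower in BALB CF lungs (Per1, -1.35, adjusted p = 0.00111, and Errfi1, -1.01, adjusted p = 0.00254), with medians of 0.57 and -0.69. For the difference between the strains, 3 of the 9 passed as lower and the median was -1.41. The list's mean per array was 7.49 to 8.94 in B6 controls and 8.56 to 9.10 in B6 CF. In BALB it was 8.07 to 8.97 in controls and 7.28 to 8.50 in CF. The sexes of B6 differed: the group mean was 7.82 in control and 8.94 in CF females, but 8.89 in control and 8.76 in CF males. In BALB it was 8.30 and 7.60 in females and 8.62 and 7.98 in males. In B6 males the changes of the Nfkbia probe sets were 0.18 to 0.46, and none passed (adjusted p 0.126 to 0.541). The 2 B6 control females with the lowest Nfkbia on 1420088_at also had the lowest means of that list among controls, 7.49 and 7.50. On 1449731_s_at the second of these arrays read 9.18, the highest of the 3 control females of B6. Of 10 immediate early genes, which respond within minutes to stimulation and handling, 3 passed as higher in B6 (Nr4a1, Atf3, Dusp1) and 4 as lower in BALB (the same 3 and Jun), and 4 passed as lower for the difference between the strains. The mean of the immediate early list was 7.46 in control and 7.38 in CF females of B6, but 6.88 and 7.98 in males. In BALB it was 6.72 and 6.82 in females, but 7.55 and 6.80 in males. Of 9 heat shock genes, 4 passed as lower in B6 and 8 in BALB. Over all probe sets, 2.72% passed as higher and 1.99% as lower in B6, 2.6% and 2.33% in BALB, and 1.2% as lower for the strain difference. The mean of the heat shock list was 8.51 in control and 8.40 in CF females of B6, and 10.39 and 9.10 in males. In BALB it was 9.17 and 8.19 in females and 10.74 and 9.03 in males. The part of these transcripts in the Nfkbia result was not tested.

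**Figure D2:**
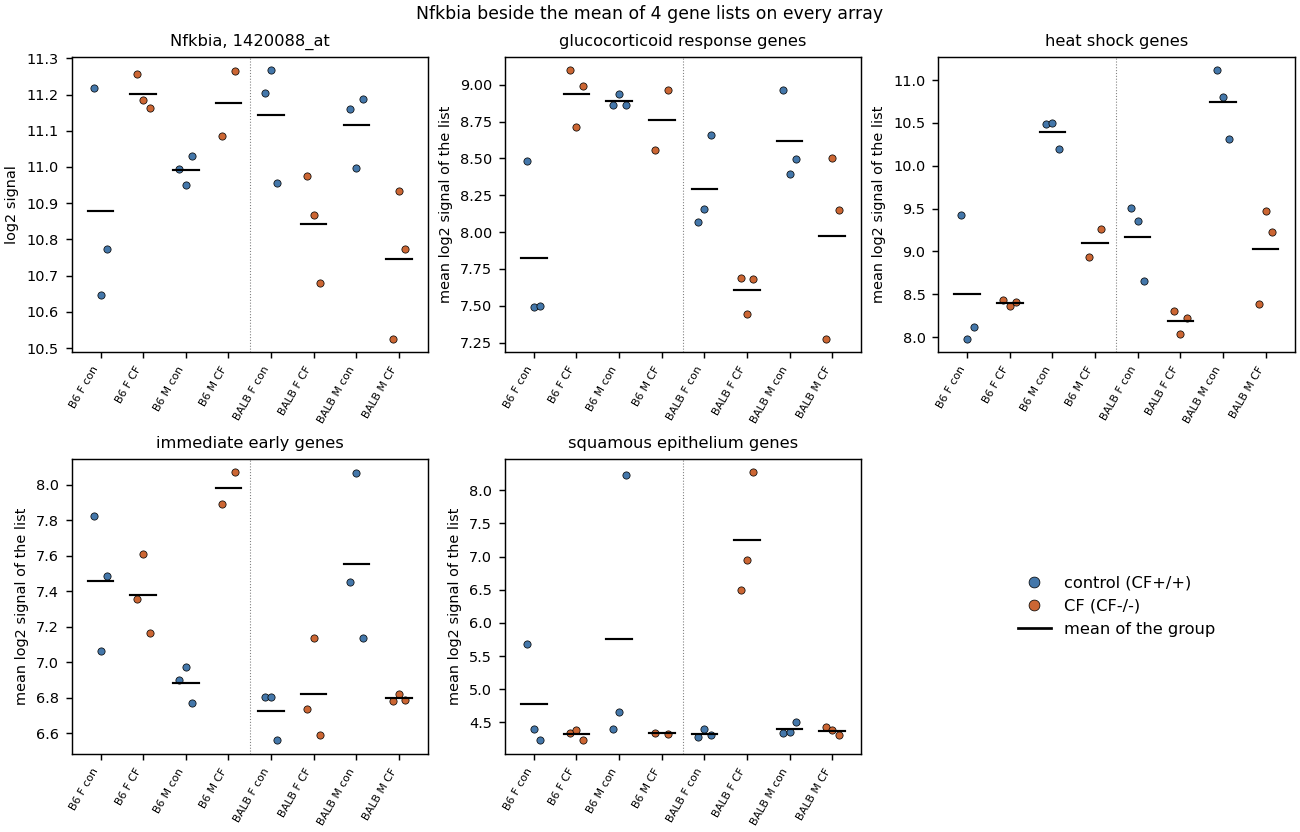
Nfkbia (log2 signal of 1420088_at, its brightest probe set) beside the mean log2 signal of 4 gene lists on each of the 23 arrays; points are arrays, bars group means, and the dotted line parts B6 from BALB. The lowest arrays of the glucocorticoid response list are 1 BALB CF male at 7.28, the 3 BALB CF females and 2 control females of B6, and the squamous list is above 6 on 4 arrays only.

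Tnfaip3 encodes A20, which ends signalling from the TNF and Toll-like receptors. On probe set 1433699_at, female controls of B6 read 6.82, 6.74 and 6.78 and CF females read 7.0, 7.04 and 7.14. Male controls of B6 read 6.67, 6.51 and 6.56, and the 2 CF males, at 7.36 and 7.38, were the highest arrays of the study. The genotypes of B6 did not overlap. In BALB the 6 controls ran from 6.67 to 6.88 with a median of 6.78, and the 6 CF arrays from 6.83 to 6.96 with a median of 6.86, overlapping them. Group means were 6.68 ± 0.12 (SD, n = 6) and 7.19 ± 0.18 (n = 5) in B6, and 6.77 ± 0.08 (n = 6) and 6.88 ± 0.05 (n = 6) in BALB.

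The B6 change was 0.54 (SE 0.05, 1.45-fold, adjusted p = 1.12e-05), and the BALB change was 0.10 (SE 0.05, adjusted p = 0.288). The difference of the changes was -0.43 (SE 0.07, adjusted p = 0.00317), and with the marker scores as covariates it was -0.48 and did not pass (adjusted p = 0.218). The strains differed in CF lungs (-0.34, adjusted p = 7.98e-05), where all 6 BALB arrays lay below all 5 B6 arrays, while the difference in controls was 0.09 (adjusted p = 0.255). The B6 call held under each of the 34 alternatives tried, with changes of 0.41 to 0.56.

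Within B6 the change was larger in males (0.79, SE 0.08, 1.73-fold, adjusted p = 1.1e-05) than in females (0.28, SE 0.07, adjusted p = 0.0713), and the test of that difference gave -0.51 for female minus male (SE 0.11, adjusted p = 0.0193). It rested on 2 CF males, and it no longer passed without either of them (adjusted p 0.0702 without CF male 1, 0.0533 without CF male 2), without CF female 1 (0.057) or without control male 2 (0.0541). Tnfaip3 was the only one of the 9 genes to pass this test, which 1.07% of all probe sets passed as lower and 0.682% as higher. In BALB the difference between the sexes was 0.11 (adjusted p = 0.77), and 0.0178% of probe sets passed.

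The second probe set of Tnfaip3, 1450829_at, gave another picture. It was a dim one, with a mean of 4.85 over all arrays against 6.87 for the first. The change was 0.28 in B6 (SE 0.08, adjusted p = 0.0513) and 0.33 in BALB (SE 0.08, 1.26-fold, adjusted p = 0.0129). B6 controls ran from 4.59 to 4.92 and B6 CF arrays from 4.89 to 5.23. BALB controls ran from 4.47 to 4.80 and BALB CF arrays from 4.80 to 5.19. The lowest CF arrays overlapped the highest controls in both strains. The difference between the strains was 0.06 on this probe set (95% interval -0.18 to 0.29, adjusted p = 0.879), and the 2 probe sets correlated at r = 0.608 over the 23 arrays. With the mean of both in place of the brighter one, the BALB change was 0.22 (adjusted p = 0.0236), the difference between the strains -0.19 (adjusted p = 0.247) and the sex difference in B6 -0.35 (adjusted p = 0.143). Both read the same symbol, and which part of the transcript each reads was not analysed here. Both probe sets thus read above 0 with CF in both strains, and a different one passed in each strain. The difference between the strains passed on 1 probe set of 2.

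The 5 genes most like the brighter Tnfaip3 probe set over the 23 arrays were Smpdl3b (r = 0.888), Klrg1 (0.853), C1qa (0.853), Fcgr4 (0.851) and Itgal (0.849). Klrg1 marks natural killer and T cells, C1qa is a complement gene of macrophages, Fcgr4 is an antibody receptor of monocytes and neutrophils, and Itgal is an integrin of leukocytes. Immune cell markers passed as higher in CF lungs of both strains, where 2.72% of all probe sets did in B6 and 2.6% in BALB. Of 10 T cell markers, 9 passed in B6 and 5 in BALB; of 8 natural killer cell markers, 5 and 2; of 10 monocyte and macrophage markers, 6 and 3; and of 10 neutrophil markers, 5 and 6. The mean of the T cell markers was 4.56 to 5.21 in B6 controls and 5.52 to 5.99 in B6 CF lungs, and that of the monocyte and macrophage markers 6.99 to 7.17 and 7.29 to 7.84. In BALB these were 4.64 to 5.64 and 5.20 to 5.88 for T cells, and 6.66 to 7.05 and 7.05 to 7.43 for monocytes and macrophages. The mean of the neutrophil markers overlapped in B6, at 5.48 to 7.16 in controls and 6.83 to 7.46 in CF lungs. Its group mean was 5.79 in control and 6.94 in CF females of B6, but 7.05 and 7.15 in males. In BALB it ran from 5.58 to 6.23 in controls and from 6.37 to 7.28 in CF lungs. The part of these markers in the Tnfaip3 result was not tested.

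Other cell types are given for comparison with the same members. Over all probe sets, 2.72% passed as higher and 1.99% as lower in B6, and 2.6% and 2.33% in BALB. Of 9 B cell markers, 1 passed as higher in B6 and 8 in BALB, and of 7 plasma cell markers, 3 were higher and 1 lower in B6 and 4 were higher in BALB. Of 6 alveolar macrophage markers, 1 was higher in B6 and 0 passed in BALB. Of 10 endothelial markers, 1 and 3 were lower. Of 6 alveolar type 1 markers, 0 and 1 were lower, of 7 club and ciliated cell markers, 0 and 1, and of 7 alveolar type 2 markers, 0 passed in either strain by limma. Gut epithelium markers passed as lower for 0 of 8 in B6 and 4 of 8 in BALB, squamous epithelium markers as higher for 0 and 2 of 9, and skeletal muscle markers for 0 of 10 in both.

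Birc3 encodes cIAP2, a ubiquitin ligase at the TNF receptor that protects cells from death, and is a target of NF-kappaB. On 1421392_a_at, the B6 controls ran from 7.50 to 7.72 with a median of 7.62, and the 5 CF arrays of B6 read 7.70, 7.63, 8.01, 7.89 and 8.01. In BALB, controls ran from 7.31 to 7.543 with a median of 7.42, and CF arrays from 7.545 to 7.76 with a median of 7.69. The BALB genotypes were just apart, and those of B6 overlapped. The change was 0.24 in B6 (SE 0.07, 1.18-fold, adjusted p = 0.0493) and 0.25 in BALB (SE 0.07, 1.19-fold, adjusted p = 0.0323), and the difference between the strains was 0.0050 (95% interval -0.19 to 0.20, adjusted p = 0.988).

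Both calls of Birc3 stood close to the threshold. The B6 call was lost in 22 of 34 alternatives, among them 17 of the 23 in which 1 array was left out (adjusted p up to 0.148, without CF male 2). The BALB call was lost in 13, among them 7 arrays of BALB left out 1 at a time (control female 1, control males 1 and 2, CF females 2 and 3, CF males 2 and 3; adjusted p 0.0658 to 0.0864). Its other probe set, 1425223_at, with a mean of 4.65 against 7.63 for the first, read -0.020 in B6 and -0.0030 in BALB (adjusted p = 0.952 and 0.992), and did not follow the first over the arrays (r = 0.058). Among controls, Birc3 was lower in BALB than in B6 by -0.20 (SE 0.07, adjusted p = 0.0472), a call that leaving out any of 15 arrays, control males 1 to 3 of B6 among them, also ended (adjusted p up to 0.123, without control male 2 of BALB).

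Counted over genes, 2 of 9 members (Tnfaip3 and Birc3) passed as higher and 0 as lower with CF in B6, where 2.72% of all probe sets passed as higher and 1.99% as lower. Their median change was 0.16 against -0.0047 over all probe sets. The arrays of the genotypes did not overlap for 1 member, Tnfaip3, against 1.3% of probe sets with CF above control. In BALB, 1 of 9 passed as higher (Birc3) and 1 as lower (Nfkbia), against 2.6% and 2.33% of probe sets, with a median change of 0.10 against -0.000017 over all probe sets, and 1 member, Birc3, had CF arrays all above controls, as had 1.05% of probe sets. For the difference between the strains, 2 of 9 passed as lower in BALB (Nfkbia and Tnfaip3) and 0 as higher, against 1.2% and 1.34%, with a median of -0.054 against 0.0018 over all probe sets.

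Compared between strains, 1 member of 9 (Birc3) passed as lower in BALB controls, where 8.12% of probe sets did, and 0 as higher (7.46%). In CF lungs 2 passed as lower in BALB (Nfkbia and Tnfaip3; 9.52% of probe sets) and 0 as higher (8.66%). The comparisons share arrays and are not independent of each other. Between sexes, 0 of the 9 passed in controls by limma, where 2.43% of probe sets did.

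**Figure D3:**
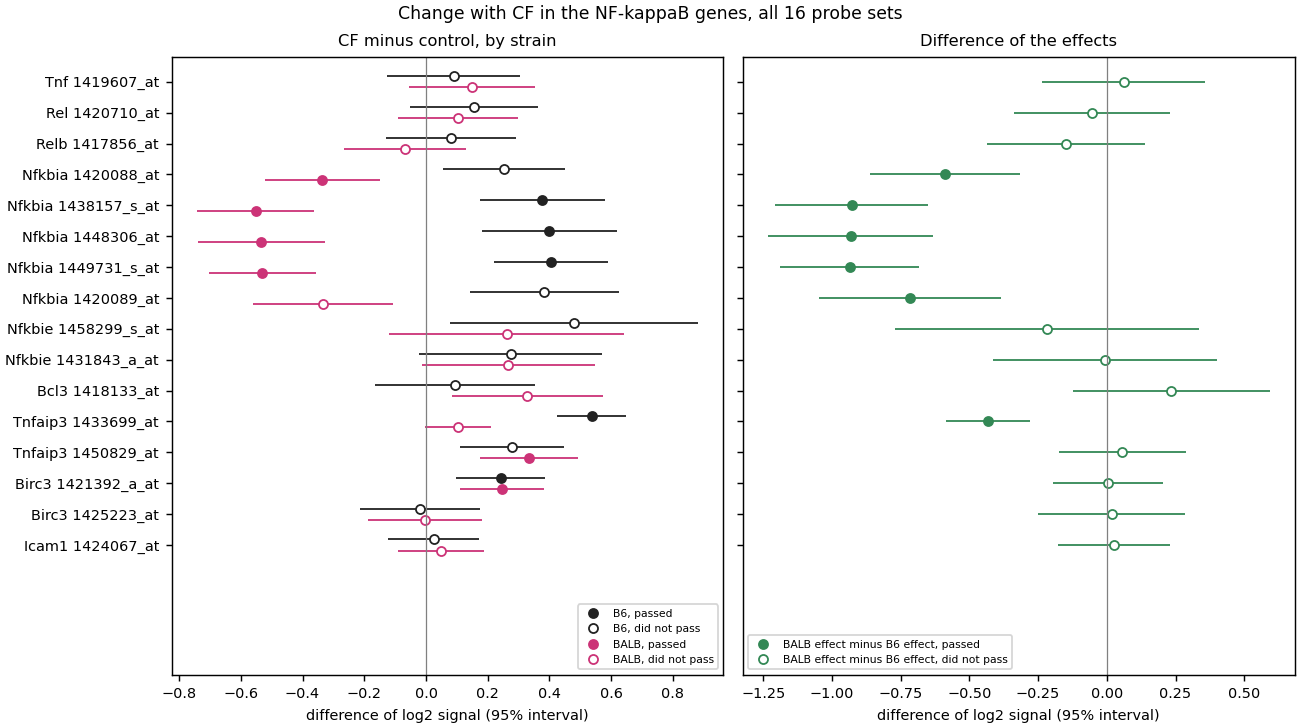
Change with CF in log2 signal for the 16 probe sets of the members, with 95% intervals: left, B6 in black and BALB in magenta; right, the BALB change minus the B6 change. Filled points passed at an adjusted p of 0.05; on the right these are the 5 Nfkbia probe sets and the brighter Tnfaip3 probe set.

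Tnf, the ligand that gives the pathway its best known input, read 4.24 to 4.71 in B6 controls (median 4.57) and 4.53, 4.60, 4.61, 4.67 and 4.72 in CF lungs of B6. In BALB it read 4.34 to 5.01 (median 4.56) and 4.50 to 4.90 (median 4.82). The genotypes overlapped in both strains. The changes of 0.09 (95% interval -0.13 to 0.31, adjusted p = 0.746) and 0.15 (-0.05 to 0.35, adjusted p = 0.465) did not pass.

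The subunits Rel and Relb, partners of the DNA-binding dimers, did not pass with CF either. Rel changed by 0.16 in B6 (adjusted p = 0.46) and by 0.10 in BALB (adjusted p = 0.641), with arrays between 3.44 and 4.26 in all groups. In BALB the change of Rel was 0.48 in females (adjusted p = 0.0774) and -0.27 in males (adjusted p = 0.381). The female minus male difference of 0.75 (SE 0.19) did not pass (adjusted p = 0.217), but did without control female 2 of BALB (0.93, adjusted p = 0.0464). Relb, which forms the dimers of the slower, noncanonical branch, changed by 0.08 in B6 (adjusted p = 0.766) and by -0.07 in BALB (adjusted p = 0.791). In B6 its change was -0.25 in females and 0.41 in males. That difference of -0.66 (SE 0.20, adjusted p = 0.0992) passed only where control female 1 of B6 was left out (-0.80, adjusted p = 0.0314).

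Nfkbie encodes IkappaB epsilon, another inhibitor of the dimers. Its 2 probe sets changed by 0.48 and 0.27 in B6 (adjusted p = 0.184 and 0.337) and by 0.26 and 0.27 in BALB (adjusted p = 0.504 and 0.303), and correlated at r = 0.813 over the 23 arrays. All 4 changes were above 0, as for Tnfaip3, but the arrays were spread more widely than for the other inhibitor, with B6 controls of 1458299_s_at from 3.86 to 4.96. In B6 males alone, 1458299_s_at passed (0.99, SE 0.29, adjusted p = 0.0447). Its CF males read 5.45 and 4.53 and the controls 4.07, 3.86 and 4.07, and 3.61% of all probe sets passed as higher in that comparison. For the female minus male difference in B6 it did not pass (-1.02, adjusted p = 0.207).

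Bcl3 encodes a nuclear member of the inhibitor family that can activate transcription with NF-kappaB subunits. It ran from 5.66 to 6.21 in B6 controls and from 5.69 to 6.28 in B6 CF lungs, a change of 0.09 (adjusted p = 0.786). In BALB it ran from 5.34 to 5.76 (median 5.56) and from 5.39 to 6.34 (median 5.89), a change of 0.33 (SE 0.12, 95% interval 0.08 to 0.57, adjusted p = 0.119). That BALB change passed without CF female 2 of BALB (0.41, adjusted p = 0.0483) or without CF male 1 of BALB (0.42, adjusted p = 0.036), its 2 lowest CF arrays.

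Icam1, the endothelial and epithelial adhesion molecule that leukocytes bind and a standard readout of NF-kappaB, had the smallest change of the 9 genes in B6. Its arrays ran from 9.91 to 10.22 in B6 controls, from 10.04 to 10.12 in B6 CF lungs, from 9.80 to 10.16 in BALB controls and from 9.95 to 10.28 in BALB CF lungs. The 4 ranges overlap. The change was 0.02 in B6 (95% interval -0.12 to 0.17, adjusted p = 0.918) and 0.05 in BALB (-0.09 to 0.19, adjusted p = 0.785), so neither interval reached the size of the Tnfaip3 change in B6.

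**Figure D4:**
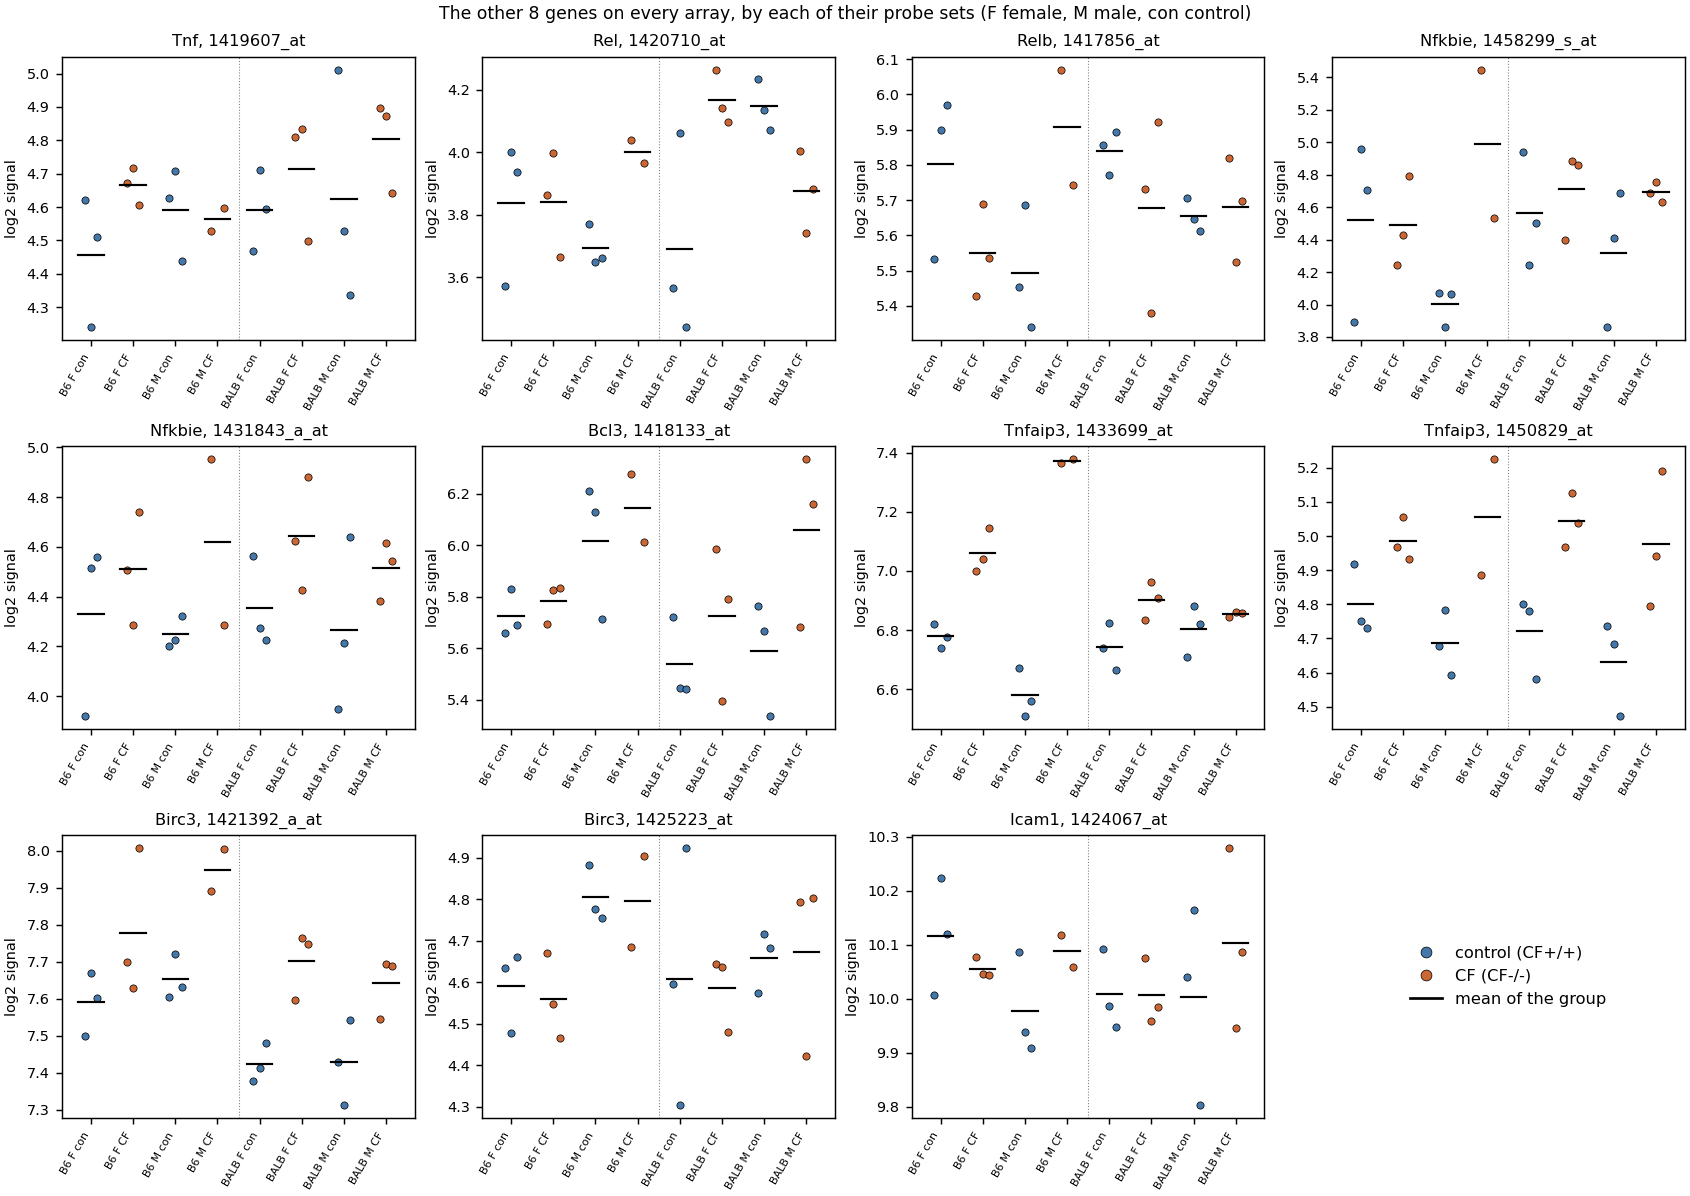
Log2 signal of the other 8 genes on each of the 23 arrays, 1 panel per probe set, with control arrays in blue, CF arrays in orange and group means as bars. The genotypes part in B6 for the brighter Tnfaip3 probe set, where both CF males read 7.36 and 7.38, and in BALB for Birc3 1421392_a_at; the other panels overlap in both strains.

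The members did not move as a block. After the mean of each strain was taken off, the 36 pairs of members had a median r of 0.136 over the 23 arrays (range -0.449 to 0.618, 27 above 0), and with the mean of each of the 8 groups taken off the median was 0.00946. These values describe pairs that share arrays and RNA samples.

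The rest of the pathway was read through 94 further genes, listed by role, of which 87 were measured. With CF in B6, 10 passed as higher and 1 as lower, with a median change of 0.08. In BALB, 9 passed as higher and 1 as lower, with a median of 0.08. Of all probe sets, 2.72% and 1.99% passed as higher and lower in B6 and 2.6% and 2.33% in BALB, and the lists were not tested against them. With the marker scores as covariates, 7 of these 11 calls in B6 still passed and 0 of the 10 in BALB (adjusted p 0.235 to 0.847). Over all probe sets, that fit called 1296 in B6 but only 22 in BALB, and the 10 BALB changes kept their sign. The other subunits, Rela and Nfkb2, passed in neither strain (Rela 0.03 and -0.09, Nfkb2 0.03 and 0.03).

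Among 9 other ligands, Il1b and Ltb passed as higher in both strains. Il1b, the inflammatory cytokine interleukin 1 beta, rose by 1.41 in B6 (SE 0.15, adjusted p = 1.92e-05) and by 0.70 in BALB (SE 0.14, adjusted p = 0.00611). Ltb, the lymphotoxin that drives the noncanonical branch, rose by 0.65 in B6 (adjusted p = 0.0239) and by 0.95 in BALB (adjusted p = 0.000947). The difference between the strains passed for neither, at -0.71 for Il1b (adjusted p = 0.0729) and 0.30 for Ltb (adjusted p = 0.582). The B6 call of Ltb was lost without any 1 of 4 B6 arrays (control female 1, CF female 2, control male 2, CF male 1; adjusted p up to 0.199), and the other 3 calls held with any 1 array left out. With the covariates, the B6 call of Il1b was kept (adjusted p = 0.000195), and those of Ltb in B6 (0.0567) and of both genes in BALB (Il1b 0.235, Ltb 0.525) were lost.

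Of 13 receptors, 1 passed in each strain. Tnfrsf1b, the second TNF receptor, rose by 0.43 in B6 (SE 0.07, adjusted p = 0.00173), and Cd40, the costimulatory receptor of B cells and macrophages, rose by 0.38 in BALB (SE 0.09, adjusted p = 0.0221). Of 23 kinases and adaptors, 1 passed in each: Sharpin, of the linear ubiquitin complex, in B6 (0.24, adjusted p = 0.00891), and Malt1, the protease of the antigen receptor branch, in BALB (0.51, adjusted p = 0.00452). Without CF male 1 of B6 the call of Sharpin was lost (0.19, adjusted p = 0.0982), as it was with the covariates (adjusted p = 0.0567). The call of Cd40 was lost without any 1 of 6 BALB arrays (control females 1 and 3, control male 1, CF females 2 and 3, CF male 2; adjusted p up to 0.0687).

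Of 10 other inhibitors and feedback genes, 1 passed in B6 and 0 in BALB. Zfp36, whose product tristetraprolin destroys cytokine messages, rose by 0.81 in B6 (SE 0.20, adjusted p = 0.0194) and read -0.36 in BALB (adjusted p = 0.317). The difference between the strains was -1.17 (SE 0.27, adjusted p = 0.0231), the same direction as for Nfkbia and Tnfaip3. It was lost without CF male 2 of B6 (adjusted p = 0.0571), and the B6 call without that array or control female 2 or 3 (adjusted p up to 0.083).

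Of 30 other targets, 5 passed as higher and 1 as lower in each strain. In B6 the 4 with the lowest adjusted p were the chemokines Ccl5 (2.40, SE 0.24, adjusted p = 1.12e-05), Cxcl10 (0.96, adjusted p = 0.000147) and Cxcl2 (0.61, adjusted p = 0.00466), and Cd83, a marker of activated dendritic cells (0.40, adjusted p = 0.00343). Each of these held with any 1 array left out and with the covariates. The probe sets of Cxcl2 and Cxcl10 were dim, with means of 2.89 and 4.43 that lie under the array medians, and whether they stood above background was not analysed here. In BALB they were the chemokine Ccl20 (0.43, adjusted p = 0.0126), Bcl2l1, a survival gene, as lower (-0.42, adjusted p = 0.0185), the stress gene Ier3 (0.49, adjusted p = 0.0284) and the growth factor Csf2 (0.37, adjusted p = 0.0314). Of these, only Ccl20, with a mean of 4.44, held with any 1 array left out, and with the covariates its call was lost too (adjusted p = 0.557). Bcl2l1 was lost without control male 1 of BALB (adjusted p = 0.0558), Ier3 without any 1 of 7 BALB arrays (adjusted p up to 0.0782) and Csf2 without any 1 of 9 (adjusted p up to 0.0935).

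**Figure D5:**
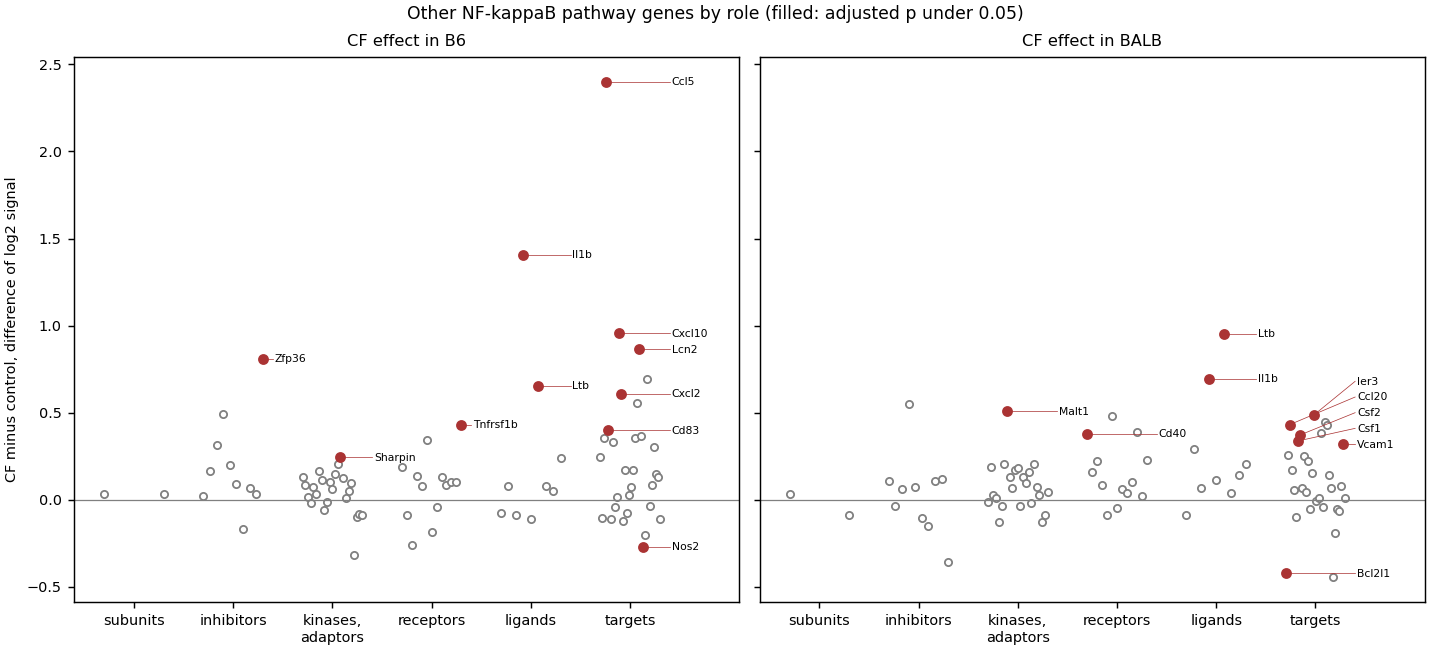
Change with CF in log2 signal of the 87 further pathway genes, by role, in B6 (left) and BALB (right). Filled, named points passed at an adjusted p of 0.05, 11 in B6 and 10 in BALB; the highest are Ccl5 at 2.40 in B6 and Ltb at 0.95 in BALB.

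The difference between the strains passed for 7 of the 87 further genes, 5 of them lower and 2 higher in BALB, where 1.2% of all probe sets passed as lower and 1.34% as higher. Lower were Ccl5 (-2.23, adjusted p = 0.00117), Zfp36, Bcl2l1 (-0.67, adjusted p = 0.0187), Cxcl10 (-0.70, adjusted p = 0.0362) and Ptgs2, the inducible prostaglandin synthase (-1.14, adjusted p = 0.0398). Higher were the receptor Il1r1 (0.48, adjusted p = 0.0169) and Nos2, the inducible nitric oxide synthase (0.41, adjusted p = 0.0392), whose probe set was dim, with a mean of 3.79. Ccl5 and Il1r1 held with any 1 array left out, Bcl2l1 was lost without CF male 1 of B6 (adjusted p = 0.0578), and Cxcl10, Ptgs2 and Nos2 were lost without any 1 of 13, 14 and 14 arrays (adjusted p up to 0.0762, 0.1 and 0.0855). With the covariates only Il1r1 still passed (adjusted p = 0.037), and Ccl5 (0.124) and the other 5 did not (adjusted p up to 0.784). Few probe sets of any gene passed this comparison in that fit. Ccl5 is also a gene of T and natural killer cells, some of whose markers passed as higher in both strains, more of them in B6. Their part in the Ccl5 result was not tested.

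In B6 the change with CF differed between the sexes for 7 of the 87 further genes, all more positive in males, as for Tnfaip3, where 1.07% of all probe sets passed as lower and 0.682% as higher. They were Cxcl2 (-1.41 for female minus male, adjusted p = 0.00696), Cd83 (-0.88, adjusted p = 0.00696), Cxcl10 (-1.27, adjusted p = 0.0155), Zfp36 (-1.81, adjusted p = 0.0209), Tnfrsf1b (-0.66, adjusted p = 0.026), Junb, an immediate early subunit of AP-1 (-1.37, adjusted p = 0.041), and Sharpin (-0.42, adjusted p = 0.046). Cd83 held with any 1 array left out, as did Cxcl2 on its dim probe set, and Cxcl10 was lost only without CF male 2 (adjusted p = 0.0576). Zfp36, Tnfrsf1b, Junb and Sharpin were lost without any 1 of 4, 7, 12 and 16 arrays (adjusted p up to 0.0819, 0.138, 0.111 and 0.254). With the covariates, Sharpin (0.107) and Junb (0.061) were lost and the other 5 passed. In the same comparison 3 of 10 immediate early markers passed as lower, while 2 of 9 glucocorticoid response, 4 of 9 heat shock and 2 of 10 neutrophil markers passed as higher, and their part in these differences was not tested.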

How the data were processed

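Total RNA of the whole right lung was labelled with biotin, per the labels. The deposited values were taken as log2 signals, a scale inferred from the values themselves, which ran from 1.79 to 13.82. How probes were summarised and normalized is not given in the sources used here. Control probe sets (64 of 45101) were left out. Symbols came from the annotation of the platform: 34945 probe sets had 1 symbol, 932 several and 9160 none.

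One linear model held the means of all 8 groups, by lmFit and eBayes of limma 3.58.1 in R 4.3.3, over 45037 probe sets, with 15 residual and 5.81 prior degrees of freedom. P-values were adjusted by Benjamini-Hochberg over all probe sets, with a threshold of 0.05. All 12 comparisons shared this fit, since 3 arrays against 3 cannot give an exact permutation p below 0.1. A change with CF is the mean of the changes in both sexes, and a strain difference is BALB minus B6. The fit was tested on simulated data.

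All members are named, and the brightest probe set stands for a gene. Of the other pathway genes, up to 4 per role and comparison are named by lowest adjusted p; Ptgs2, the fifth target for the strain difference, was added after its values were seen. Like genes are the 5 with the highest Pearson r to Tnfaip3 and to Nfkbia, after strain means were taken off, among 11627 genes at or above the median signal. Promoter sequences came from RefSeq on GRCm38.p6. Markers were used as listed beside their counts, 1 probe set per gene. The members and lists were chosen with earlier results of these data known.

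Alternatives were quantile normalization, median centring, a filter at the median signal, another prior, the arrays of 1 strain, a replicate block, marker scores as covariates, 16 added on the linear scale, 1 array left out, other rules for a gene's probe set and, chosen after seeing the values, the arrays high in gut or squamous markers left out. Replicate numbers gave no sign of pairing the samples. Over 9 pairs of same-numbered arrays, B6 males not included, the correlation of deviations from the group means was -0.168 to 0.0126. With so few arrays per group, and other tissue on single arrays, these correlations cannot exclude a shared batch.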

Additional observations from a re-analysis of the deposited data

Results flagged for a closer look

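The change with CF differed between the strains, by a test of the difference itself, on all 5 probe sets of Nfkbia (BALB minus B6: 1420088_at -0.59, 1438157_s_at -0.93, 1448306_at -0.93, 1449731_s_at -0.94, 1420089_at -0.72) and on 1433699_at of Tnfaip3 (-0.43). Among the other pathway genes it differed for Ccl5 (-2.23), Zfp36 (-1.17), Ptgs2 (-1.14), Cxcl10 (-0.70), Bcl2l1 (-0.67), Il1r1 (0.48) and Nos2 (0.41).

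Within B6, the change with CF differed between the sexes (female minus male) for Tnfaip3 1433699_at (-0.51), Zfp36 (-1.81), Cxcl2 (-1.41), Junb (-1.37), Cxcl10 (-1.27), Cd83 (-0.88), Tnfrsf1b (-0.66) and Sharpin (-0.42). Each of these rests on 2 CF males. No group had more than 3 arrays, so single arrays far from their group were not tested for.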

How the results depend on the processing

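Over 6184 values of the members' 16 probe sets under alternatives, 5903 kept their side of the threshold, 220 lost their call, 61 gained one and no called value reversed. Among the 5903, 203 values changed sign where neither setting passed. The Tnfaip3 call in B6 (1433699_at) and that of Nfkbia 1449731_s_at in B6 held under each alternative run for them. The cause of the changes below was not tested.

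With 1 array left out, members passing as higher were 1 to 2 in B6 and 0 to 2 in BALB, and as lower 0 to 1 in BALB. They were 0 to 1 (higher) and 0 to 2 (lower) between controls of the strains, 0 to 3 (lower) for the sex difference in B6 and 0 to 1 (higher) for that in BALB. Probe sets called were then 852 to 2329 in B6, 1368 to 2851 in BALB, 591 to 1568 for the strain difference, 245 to 1183 and 0 to 100 for the sex differences in B6 and BALB, and 477 to 1772 between the sexes in controls.

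With the arrays of 1 strain, 1 member passed as higher in B6 and 0 in either direction in BALB, where 1406 probe sets were called, and 24 for its sex difference. With marker scores as covariates, 1 member passed as higher in B6, 0 in BALB and 0 for the strain difference, and probe sets called fell to 1296, 22 and 20, to 1727 between control strains and to 1 for the sex difference in BALB. Without the 5 gut arrays, 0 members passed in BALB (326 probe sets called). Between control strains 1 was then higher and 0 lower (4118 called), and 2 were lower for the sex difference in B6 (1465 called), with 27 called in BALB and 255 between sexes in controls. Without the 4 squamous arrays, 1 member was higher in B6 and 0 in BALB (males only, 800 called). With centred arrays, 0 were higher in BALB and 0 lower between control strains. With the mean of a gene's probe sets, 1 was lower for the strain difference, 1 higher and 0 lower between control strains, and 0 for the sex difference in B6. The other prior called 13 probe sets for the sex difference in BALB.

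The replicate block gave 2 members higher in B6, 1 higher and 1 lower in BALB, 2 lower for the strain difference and 3 (with Birc3, -0.21, adjusted p = 0.0274) in place of 2 lower in BALB CF lungs, with 2081, 2173, 1128 and 8158 probe sets called. Within 1 sex, the block ended 4 Nfkbia calls (1449731_s_at in females of both strains, 1448306_at in BALB females, 1438157_s_at in BALB males; adjusted p 0.0556 to 0.0617) and gave 1 for Birc3 in B6 males (adjusted p = 0.0465). It also ended the sex differences of Sharpin (0.0633) and Junb (0.0526) in B6, and the changes of Lcn2 in B6 (0.0517) and of Csf1 (0.0528) and Vcam1 (0.05) in BALB. Whether the replicate numbers pair the samples could not be decided. Signals near or under the array medians of 4.56 to 4.64 limit what could be seen of Tnf, Rel, Nfkbie, the second probe sets of Tnfaip3 and Birc3, Cxcl2, Cxcl10, Ccl20, Csf2 and Nos2.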
